A study of Homo sapiens with 12 samples.

Results

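This account covers 10 genes of the NF-kB system: the subunits NFKB1, NFKB2, RELA, RELB and REL, the feedback regulators NFKBIA, NFKBIZ, TNFAIP3 and BIRC3, and the effector SOD2. The list is by name and uses no measured value, but it was drawn up with earlier results of these data known, the difference between the lines included. Each gene was read from the probe set annotated with its symbol alone. Of the 10 genes, 9 had such a probe set, 1 each, among 18404 named genes; BIRC3 was not analysed here. RNA came from 2 established lines of human melanoma cells, A375 and A2058, whose samples all carry the label BRAF V600E. The groups were A375 with vemurafenib, A375 with DMSO, A2058 with vemurafenib and A2058 with DMSO, with 3 Affymetrix arrays each, numbered 1 to 3 within a group. Vemurafenib inhibits mutant BRAF, and DMSO is its solvent. The labels give 1 µM vemurafenib over 72 h, with fresh drug each 24 h, or an equal volume of DMSO; this text names only A375p, a name the labels use for the A375 cells, but stands on the A2058 samples too. No label says whether the arrays of a group came from separate cultures, so p-values measure the spread between these arrays, which may be technical.

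NF-kB factors are dimers of 5 related proteins that share a DNA-binding domain and, in resting cells, are mostly held in the cytoplasm. In the canonical route an IkB kinase marks the inhibitor IkB alpha, the product of NFKBIA, for destruction, which frees dimers of RELA or REL with p50, the processed product of NFKB1. In the non-canonical route NFKB2 is processed to p52, which acts with RELB. NF-kB induces several of its own inhibitors and subunits, so that NFKBIA, TNFAIP3, NFKB2 and RELB are widely used as readouts of its activity, and melanomas are known to differ in how active the pathway is at rest.

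The promoter windows of several of these genes hold the kB consensus, the 10-base motif that NF-kB dimers bind, and are shown because these genes are both parts and targets of the pathway. The sequences are RefSeq's, build GRCh38.p14, from 250 bases before to 50 after each annotated start. Each line gives 80 bases, 5′ to 3′ on the gene's strand, and capitals mark every base inside a match on either strand.
NFKB1 (chr4:102501275-102501354, plus strand): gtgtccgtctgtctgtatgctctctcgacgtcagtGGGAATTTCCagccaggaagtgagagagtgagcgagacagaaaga
REL (chr2:60881492-60881571, plus strand): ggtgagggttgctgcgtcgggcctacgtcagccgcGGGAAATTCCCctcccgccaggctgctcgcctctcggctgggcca
NFKB2, the second of 3 windows (chr10:102394450-102394529, plus strand): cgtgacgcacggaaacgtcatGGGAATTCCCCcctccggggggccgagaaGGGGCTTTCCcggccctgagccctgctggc
NFKBIA (chr14:35404786-35404865, minus strand): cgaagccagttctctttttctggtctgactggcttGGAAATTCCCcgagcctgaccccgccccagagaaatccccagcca
NFKBIZ, the first of 2 windows (chr3:101827740-101827819, plus strand): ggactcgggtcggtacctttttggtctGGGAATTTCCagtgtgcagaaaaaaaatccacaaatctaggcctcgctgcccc
TNFAIP3 (chr6:137867163-137867242, plus strand): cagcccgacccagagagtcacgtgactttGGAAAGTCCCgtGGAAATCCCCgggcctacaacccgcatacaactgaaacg
The same 10 letters, GGGAATTTCC, stood in NFKB1 and NFKBIZ on the gene's strand and in NFKBIA and REL on the opposite strand. In REL and in NFKB2 matches of both strands overlapped. The third window of NFKB2 and the second of NFKBIZ, not shown, also held matches of both strands at the same bases. Of 9 listed genes with a window, BIRC3 included, 7 held a kB match in at least 1 window, against 13.3% of 27305 genes (11.3% of all windows); genes with several windows have more chances of a match. RELA and SOD2 held none, and RELB had no window in the sequences used. The interferon response element was found in 1 of the 9, RELA (4.38% of genes), and the AP-1 motif TGANTCA in 0 of the 9 (9.37% of genes). A match describes letters in these windows and was not tested for binding.

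Values are log2 expression values, normalized between arrays by the authors, and changes are differences of group means ± SE from 1 limma fit over all 12 arrays (two-sided, Benjamini-Hochberg adjusted over all genes, called at adjusted p under 0.05). Arrays have no read depth; the number of arrays limits the precision. Pairs of arrays within a group correlated at 0.998 to 0.999 across genes, except that A375 vemurafenib array 1 correlated at 0.994 with the other arrays of its group. The lower quartile of all probe sets lay between 4.37 and 4.41 on each array, and signals near that end are compressed. The melanocyte lineage factors MITF and SOX10 averaged 8.35 to 10.5 in all 4 groups. The pigment genes PMEL and TYR stood at 4.57 to 5.07 in the A375 groups, against 8.45 to 11.4 in the A2058 groups. MLANA and TYRP1 were lower in A2058 DMSO, at 4.75 and 6.06, and stood at 7.08 and 9.33 in A2058 vemurafenib. In the A375 groups these 2 stood at 4.44 to 5.30. Over the 7 measured melanocyte markers the mean level was 6.88 to 6.97 in A375 vemurafenib, 6.55 to 6.65 in A375 DMSO, 9.95 to 9.97 in A2058 vemurafenib and 8.55 to 8.62 in A2058 DMSO. With vemurafenib 3 rose and 1 fell in A375 and 6 rose in A2058, and under DMSO 6 were lower and 1 higher in A375; their part in the results below was not tested. Of 7 measured leukocyte markers, PTPRC, CD3E, CD14, CSF1R and ITGAM averaged 4.15 to 5.43 over the 4 groups, and TYROBP 6.56 to 6.59. CD68, a lysosomal protein, stood at 10.2 in A375 vemurafenib, 9.24 in A375 DMSO, 8.53 in A2058 vemurafenib and 8.32 in A2058 DMSO. CD68 alone was called with vemurafenib, up by 0.92 in A375 and 0.21 in A2058, and under DMSO it was higher in A375 by 0.92 (adjusted p = 1.85e-08). ITGAM was also called higher in A375 under DMSO (0.11, adjusted p = 0.0355), but the count of such markers was 1 when any DMSO array was left out. The mean level of the 7 was 5.81 to 5.97 in A375 vemurafenib, 5.70 to 5.76 in A375 DMSO, 5.58 to 5.65 in A2058 vemurafenib and 5.58 to 5.60 in A2058 DMSO.

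Some markers of other cell types were called, with vemurafenib or between the lines. The epithelial markers called down in A375 were KRT5, KRT8 and KRT18, and the same genes were called higher in A375 under DMSO. Of 8 fibroblast markers, 3 rose and 1 fell in A375, led by LUM (2.15), and 1 fell in A2058, LUM (-0.41); under DMSO 2 were higher in A375 and 1 lower, LUM (-2.67). Their mean level was 5.31 to 5.43 in A375 vemurafenib, 5.04 to 5.11 in A375 DMSO, 5.26 to 5.30 in A2058 vemurafenib and 5.28 to 5.31 in A2058 DMSO. Of 7 epithelial markers, 3 fell in A375 and 1 in A2058, led by KRT18 (-1.79 and -1.41), and 3 were higher in A375 under DMSO, led by KRT18 (1.39), while EPCAM and CDH1 averaged 4.48 to 4.57 in every group. Their mean level was 5.48 to 5.71 in A375 vemurafenib, 5.91 to 5.94 in A375 DMSO, 5.36 to 5.42 in A2058 vemurafenib and 5.60 to 5.67 in A2058 DMSO. Of 6 endothelial markers only KDR was called, down in A2058 (-0.64) and higher in A375 under DMSO (1.21), and the mean level was 5.17 to 5.26 in A375 vemurafenib, 5.19 to 5.26 in A375 DMSO, 4.95 in A2058 vemurafenib and 4.98 to 5.08 in A2058 DMSO. The part of any of these markers in the results was not tested.

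**Figure D1:**
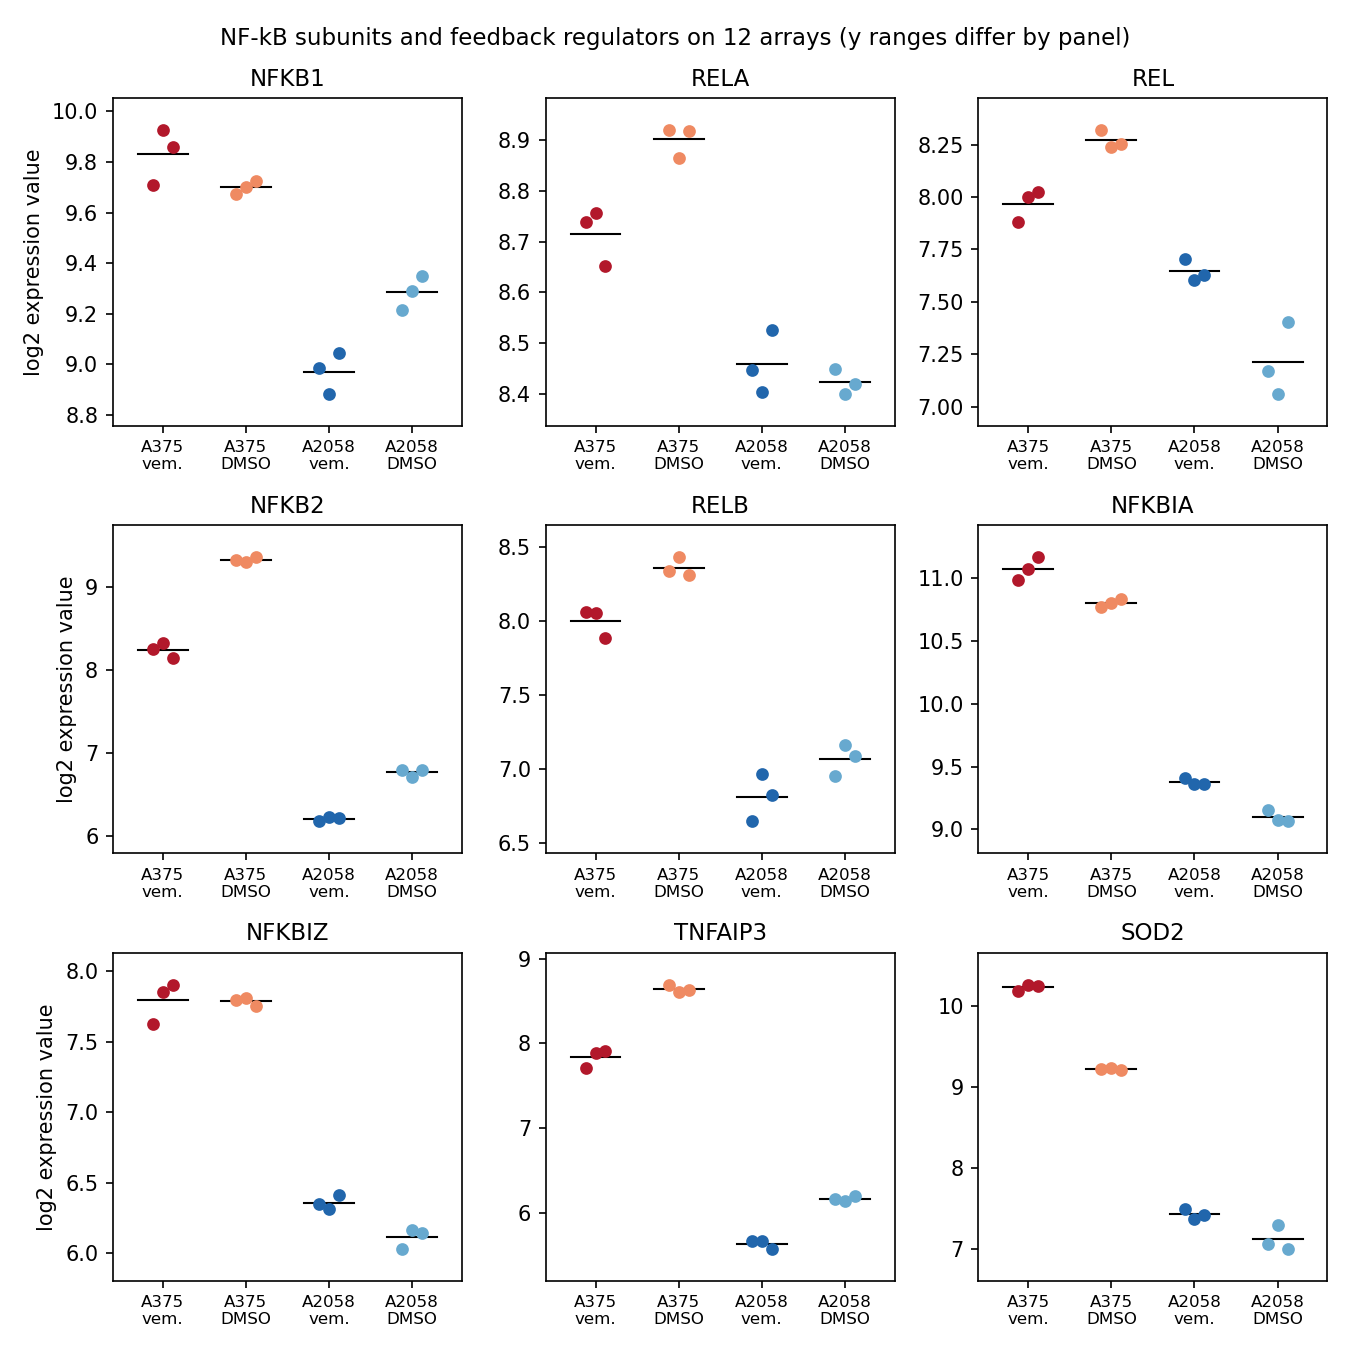
Log2 expression value (y, a different range in each panel) of the 9 measured genes in each of the 4 groups (x; vem., vemurafenib). Points are arrays and bars are group means of 3 arrays. In every panel all 6 A375 arrays lie above all 6 A2058 arrays.

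The first question was what vemurafenib did to these genes in each line. In A375, 5 of the 9 fell (NFKB2, TNFAIP3, RELB, REL and RELA) and 2 rose (SOD2 and NFKBIA), against 19.3% of all genes called down and 17.7% called up. In A2058, 4 fell (NFKB2, TNFAIP3, NFKB1 and RELB) and 4 rose (REL, SOD2, NFKBIA and NFKBIZ), against 12.5% of all genes down and 14.6% up. The median change of the 9 was -0.19 in A375 and 0.036 in A2058, beside 0.0042 and 0.0064 over all genes. NFKB2, RELB and TNFAIP3 fell in both lines and NFKBIA and SOD2 rose in both, while REL was called in opposite directions. Of all genes, 6.85% fell in both lines, 6.52% rose in both and 4.41% were called in opposite directions. Measurements of total RNA cannot tell a change in all cells from a change in some of them, nor fewer cells of a type from less RNA per cell.

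Among the canonical subunits, NFKB1, which encodes p105 and its product p50, stood at 9.71, 9.93 and 9.86 in A375 vemurafenib and at 9.68, 9.70 and 9.72 in A375 DMSO. One vemurafenib array lay among the DMSO arrays, and the change of 0.13 ± 0.061 was not called (adjusted p = 0.118). It passed with quantile normalization (adjusted p = 0.0241), with array weights (0.00802) and, at 0.19 and an adjusted p of 0.0118, once A375 vemurafenib array 1 was dropped; dropping each array in turn gave adjusted p of 0.0118 to 0.362. In A2058 NFKB1 stood at 8.99, 8.88 and 9.04 with vemurafenib and at 9.22, 9.29 and 9.35 with DMSO. These groups did not overlap, and NFKB1 fell by 0.31 ± 0.061 on the log2 scale (1.24-fold lower, adjusted p = 0.00162).

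RELA, the main transactivating subunit of the canonical dimer, moved little. It stood at 8.74, 8.76 and 8.65 in A375 vemurafenib and at 8.92, 8.86 and 8.92 in A375 DMSO, groups that did not overlap, and fell by 0.19 ± 0.044 (1.14-fold lower, adjusted p = 0.0047). In A2058 it stood at 8.45, 8.40 and 8.53 with vemurafenib and at 8.45, 8.40 and 8.42 with DMSO, so the groups overlapped. The change there was 0.036 ± 0.044 with a 95% interval of -0.061 to 0.13 (adjusted p = 0.695).

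REL, the c-Rel subunit, best known from lymphocytes, was the member called in opposite directions. In A375 it stood at 7.88, 8.0 and 8.02 with vemurafenib and at 8.32, 8.24 and 8.25 with DMSO, and fell by 0.30 ± 0.075 (1.23-fold lower, adjusted p = 0.00577). In A2058 it stood at 7.71, 7.60 and 7.63 with vemurafenib and at 7.17, 7.06 and 7.40 with DMSO, and rose by 0.44 ± 0.075 (1.35-fold, adjusted p = 0.000683). The groups did not overlap in either line, although A2058 DMSO array 3 lay above the other arrays of its group.

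The non-canonical subunits NFKB2 and RELB fell in both lines. NFKB2, which encodes p100 and its product p52, stood at 8.25, 8.32 and 8.15 in A375 vemurafenib and at 9.32, 9.29 and 9.35 in A375 DMSO. This was the largest fall among the 9 genes (-1.08 ± 0.048, 2.12-fold lower, adjusted p = 1.49e-09). In A2058 NFKB2 stood at 6.18, 6.24 and 6.21 with vemurafenib and at 6.80, 6.71 and 6.79 with DMSO, a fall of 0.56 ± 0.048 (1.47-fold, adjusted p = 1.84e-06). The groups did not overlap in either line.

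RELB, the partner of p52, stood at 8.06, 8.06 and 7.89 in A375 vemurafenib and at 8.34, 8.43 and 8.31 in A375 DMSO, with no overlap (-0.36 ± 0.081, 1.28-fold lower, adjusted p = 0.00332). In A2058 it stood at 6.65, 6.97 and 6.83 with vemurafenib and at 6.96, 7.17 and 7.09 with DMSO. There the highest vemurafenib array lay just above the lowest DMSO array, and the fall of 0.26 ± 0.081 (adjusted p = 0.0332) was lost with all probe sets tested (adjusted p = 0.0595), with array weights (0.0769), and without A2058 DMSO array 2 (0.129), A2058 DMSO array 3 (0.0892), A2058 vemurafenib array 1 (0.151) or A2058 vemurafenib array 3 (0.074).

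Among the feedback regulators, NFKBIA and TNFAIP3 moved in opposite directions. NFKBIA, the IkB alpha inhibitor that retains dimers in the cytoplasm, stood at 10.98, 11.07 and 11.17 in A375 vemurafenib and at 10.77, 10.80 and 10.83 in A375 DMSO. In A2058 it stood at 9.41, 9.36 and 9.36 with vemurafenib and at 9.16, 9.08 and 9.06 with DMSO. The groups did not overlap in either line, and NFKBIA rose by 0.27 ± 0.049 in A375 (adjusted p = 0.000598) and by 0.28 ± 0.049 in A2058 (adjusted p = 0.00085), 1.21-fold in each.

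TNFAIP3, which encodes the ubiquitin-editing enzyme A20 that shuts down signalling to the IkB kinase, stood at 7.72, 7.89 and 7.91 in A375 vemurafenib and at 8.69, 8.60 and 8.63 in A375 DMSO. It fell by 0.80 ± 0.054 (1.75-fold lower, adjusted p = 9.2e-08). In A2058 it stood at 5.68, 5.67 and 5.58 with vemurafenib and at 6.17, 6.15 and 6.21 with DMSO, a fall of 0.53 ± 0.054 (1.44-fold, adjusted p = 8.51e-06). Every vemurafenib array lay below every DMSO array of its line.

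NFKBIZ, the nuclear IkB zeta that acts as a coactivator at a subset of NF-kB target genes, stood at 7.63, 7.85 and 7.91 in A375 vemurafenib, on either side of 7.80, 7.81 and 7.76 in A375 DMSO. Its change there was 0.0094 ± 0.066 (95% interval -0.13 to 0.15, adjusted p = 0.944). In A2058 NFKBIZ stood at 6.35, 6.31 and 6.41 with vemurafenib and at 6.03, 6.16 and 6.14 with DMSO, groups that did not overlap, and rose by 0.25 ± 0.066 (1.19-fold, adjusted p = 0.0134). Dropping A2058 DMSO array 1 (0.21, adjusted p = 0.0662) or A2058 vemurafenib array 3 (0.22, adjusted p = 0.0566) ended that call.

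SOD2, the mitochondrial superoxide dismutase and a long-known NF-kB target, had the largest rise of the set. It stood at 10.18, 10.26 and 10.25 in A375 vemurafenib and at 9.22, 9.24 and 9.21 in A375 DMSO (1.01 ± 0.067, 2.01-fold, adjusted p = 8.03e-08). In A2058 it stood at 7.50, 7.37 and 7.42 with vemurafenib and at 7.07, 7.30 and 7.01 with DMSO, a rise of 0.31 ± 0.067 (1.24-fold, adjusted p = 0.00383). The A375 groups were about 1 log2 unit apart, while in A2058 the highest DMSO array lay just under the lowest vemurafenib array.

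**Figure D2:**
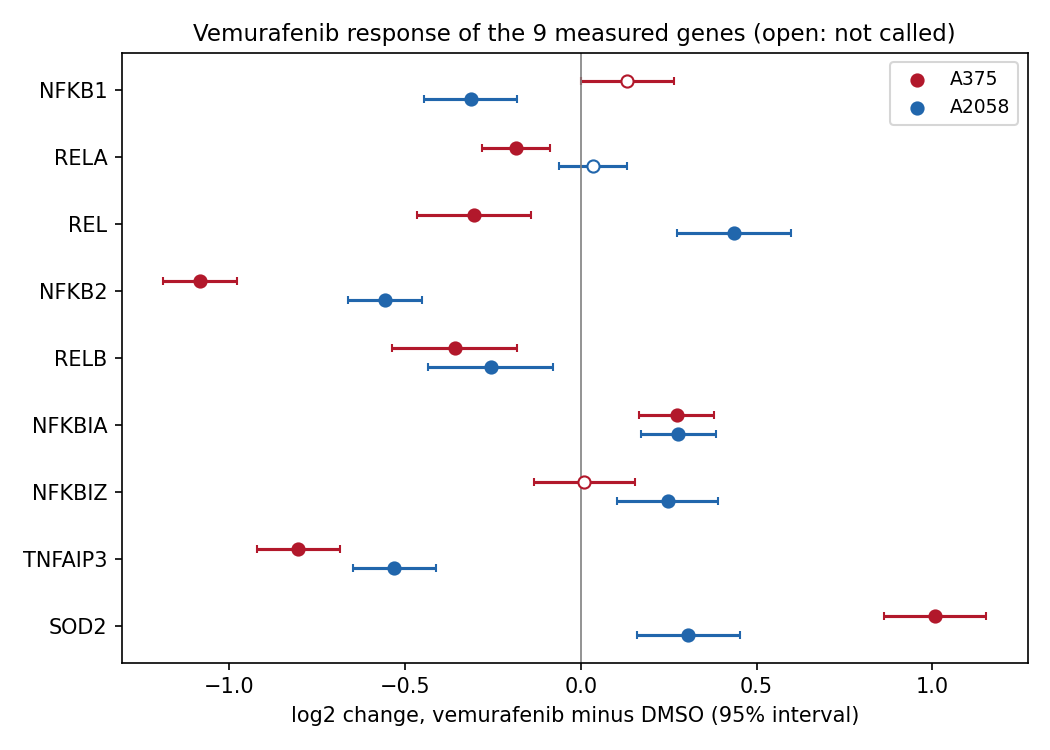
Log2 change of the 9 genes, vemurafenib minus DMSO, in A375 (red) and A2058 (blue), with 95% intervals of the limma fit; filled points were called. NFKB2 and TNFAIP3 lie left of 0 and SOD2 and NFKBIA right of 0 in both lines, and REL lies on opposite sides.

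Whether the lines responded differently was tested as a contrast of that fit, the A375 change minus the A2058 change. It was called for 6 of the 9 genes, 2 upward and 4 downward, against 13.1% and 16.4% of all genes. The response was more positive in A375 for SOD2 (0.70 ± 0.095, adjusted p = 9.06e-05) and NFKB1 (0.45 ± 0.086, adjusted p = 0.00148). It was more negative in A375 for REL (-0.74 ± 0.11, adjusted p = 0.000149), NFKB2 (-0.53 ± 0.068, adjusted p = 6.25e-05), TNFAIP3 (-0.27 ± 0.077, adjusted p = 0.0165) and RELA (-0.22 ± 0.063, adjusted p = 0.0173). The TNFAIP3 call was lost with arrays centred on their medians (adjusted p = 0.0654) and the RELA call with quantile normalization (adjusted p = 0.0501). NFKB2 and TNFAIP3 had lower signals in A2058, and the part of signal compression in their differences was not tested. For NFKBIA the difference was -0.0041 ± 0.069 with a 95% interval of -0.16 to 0.15, and for RELB -0.10 ± 0.12 with an interval of -0.35 to 0.15. The NFKBIZ difference (-0.24 ± 0.093, adjusted p = 0.0793) passed once A375 vemurafenib array 3 was dropped (adjusted p = 0.0309) and with array weights (0.0333), and was -0.15 with A375 vemurafenib array 1 dropped (adjusted p = 0.0949).

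The second question was how the lines differ in these genes. All 9 were higher in A375 than in A2058 under DMSO (median difference 1.68, beside -0.0066 over all genes), where 23.9% of all genes were called higher and 22.5% lower. All 9 were also higher in A375 under vemurafenib (median 1.44, beside -0.0078 over all genes), where 22.7% were called higher and 24.2% lower. For each of the 9 the lowest of the 6 A375 arrays lay above the highest of the 6 A2058 arrays, a pattern found in 13.4% of all genes. Each line was measured in arrays of its own with no batch label, so a batch between the lines cannot be told apart from the lines themselves. The line comparisons share their arrays with the vemurafenib comparisons above, and the change in a gap between treatments is the same quantity as the difference of responses.

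Under DMSO the gap was largest for NFKB2 (2.55 ± 0.048, 5.87-fold, adjusted p = 3.96e-13) and TNFAIP3 (2.47 ± 0.054, 5.53-fold, adjusted p = 1.72e-12). SOD2 followed at 2.10 ± 0.067 (4.28-fold), NFKBIA at 1.70 ± 0.049 (3.25-fold), NFKBIZ at 1.68 ± 0.066 (3.20-fold), RELB at 1.29 ± 0.081 (2.45-fold) and REL at 1.06 ± 0.075 (2.09-fold). The canonical pair differed least, RELA by 0.48 ± 0.044 (1.39-fold, adjusted p = 1.27e-06) and NFKB1 by 0.42 ± 0.061 (1.33-fold, adjusted p = 7.41e-05). The feedback genes and the non-canonical subunits thus differed between the lines by more than RELA and NFKB1 did, with no test between genes.

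Under vemurafenib SOD2 had the largest gap, at 2.80 ± 0.067 (6.97-fold, adjusted p = 2.93e-12), and the NFKB1 gap was 0.86 ± 0.061 (1.82-fold). Gaps were smaller than under DMSO for NFKB2 (2.03 ± 0.048, 4.08-fold), TNFAIP3 (2.19 ± 0.054, 4.58-fold), RELA (0.26 ± 0.044, 1.19-fold) and REL (0.32 ± 0.075, 1.25-fold, adjusted p = 0.00288). NFKBIA kept a gap of 1.70 ± 0.049, RELB had 1.19 ± 0.081 and NFKBIZ 1.44 ± 0.066. TNFAIP3 and NFKB2 in vemurafenib-treated A375 thus averaged 7.84 and 8.24, still above their averages of 6.17 and 6.77 in A2058 with DMSO.

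**Figure D3:**
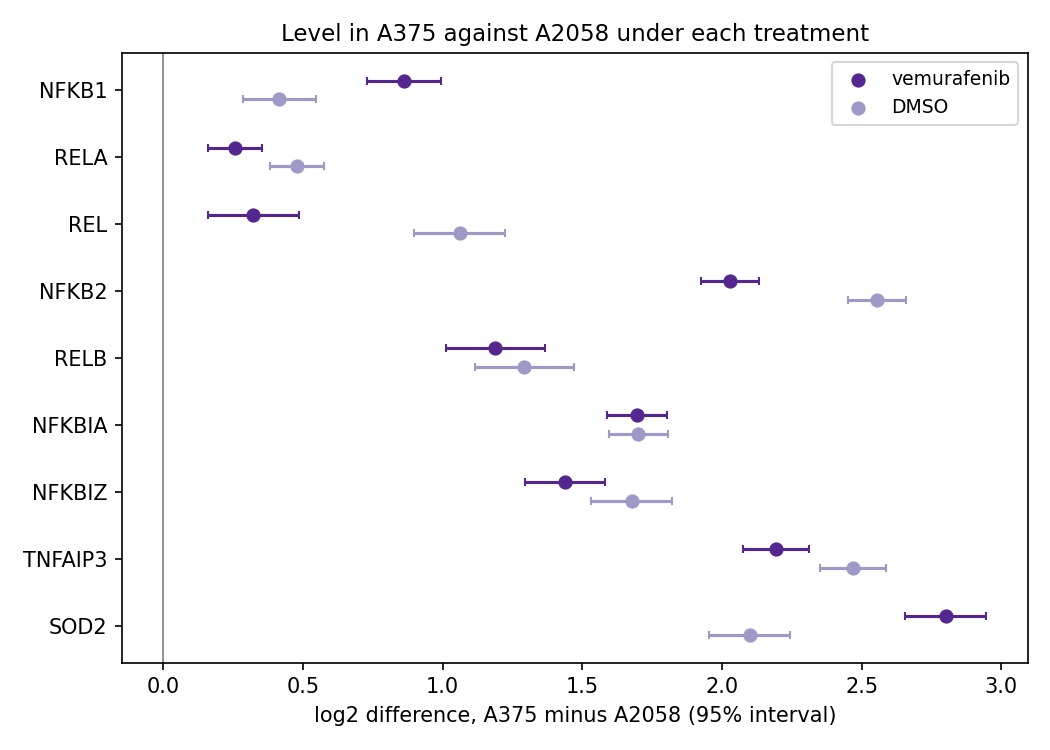
Log2 difference of the 9 genes between lines, A375 minus A2058, under vemurafenib (dark) and DMSO (light), with 95% intervals of the limma fit. All points lie right of 0; the vemurafenib point is right of the DMSO point for SOD2 and NFKB1 and left of it for REL and NFKB2.

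By group mean, the order was A375 vemurafenib, A375 DMSO, A2058 vemurafenib and A2058 DMSO, from high to low, for NFKBIA, NFKBIZ and SOD2. NFKB2, RELB, TNFAIP3 and NFKB1 had a different order in A2058, with DMSO above vemurafenib, and of these NFKB1 alone had vemurafenib above DMSO in A375. RELA and REL ran from A375 DMSO through A375 vemurafenib and A2058 vemurafenib to A2058 DMSO. Neighbours in these orders that overlapped were the A375 groups for NFKB1 and NFKBIZ and the A2058 groups for RELA and RELB.

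The rest of the pathway was described with 7 lists by role, 100 genes in all, of which 92 were measured. In A375, 34 were called up (37.0%, beside 17.7% of all genes) and 28 down (30.4%, beside 19.3%) with vemurafenib (median 0.048). In A2058, 12 were called up (13.0%, beside 14.6%) and 27 down (29.3%, beside 12.5%), with a median of -0.033. In both lines 8 genes rose (8.70%, beside 6.52% of all genes) and 15 fell (16.3%, beside 6.85%). Under DMSO 47 of the 92 were higher in A375 (51.1%, beside 23.9%) and 18 lower (19.6%, beside 22.5%), with a median difference of 0.15. The shares of all genes called are those given above for each comparison.

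Among 8 measured ligands, 3 fell and 1 rose in A375 (37.5% and 12.5%, beside 19.3% and 17.7% of all genes). In A2058, 2 fell (25%, beside 12.5%). The interleukin-1 genes fell most: IL1A in A375 (-3.68 ± 0.15) and IL1B in A375 (-1.55 ± 0.062) and A2058 (-1.22 ± 0.062). TNF, the prototype activator of the canonical route, fell in A375 (-0.26 ± 0.055). It averaged 4.96 in A375 vemurafenib and 5.21 in A375 DMSO, low signals beside array medians of 5.19 to 5.30. TNFSF13B, which encodes BAFF, an activator of the non-canonical route in B cells, rose in A375 (2.36 ± 0.096) and fell in A2058 (-0.67 ± 0.096). Under DMSO IL1A (5.72 ± 0.15), IL1B (0.59 ± 0.062) and TNF (0.24 ± 0.055) were higher in A375, and TNFSF13B was lower (-1.08 ± 0.096). IL1A averaged 4.44 in A2058 DMSO, near the lower quartile of the arrays, where signals are compressed, and TNF averaged 4.97 there. IL1B averaged 4.95 in A375 vemurafenib and 4.69 in A2058 vemurafenib, and TNFSF13B averaged 5.09 in A375 DMSO, also low signals. The part of signal compression in these changes was not tested. A second ligand was called up in A375 without A375 vemurafenib array 2.

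Of 14 receptors, 3 rose and 3 fell in A375 (21.4% each, beside 17.7% and 19.3% of all genes). In A2058, 6 fell (42.9%, beside 12.5%) and none was called up by limma. In A375 the p75 neurotrophin receptor NGFR (3.28 ± 0.060), the double-stranded RNA sensor TLR3 (2.37 ± 0.093) and the lymphotoxin receptor LTBR (0.14 ± 0.046) rose. LTBR, adjusted p = 0.0336, was lost with the replicate block (0.0604), with A375 arrays alone (0.0901) and without A375 DMSO array 1 or 2 or A375 vemurafenib array 1 or 2 (0.0524 to 0.13). The endotoxin receptor TLR4 fell in A375 (-2.77 ± 0.075) and A2058 (-1.73 ± 0.075), and so did the TWEAK receptor TNFRSF12A (-0.53 ± 0.049 and -2.68 ± 0.049). TNFRSF1B, TNF receptor 2, fell in A375 (-0.32 ± 0.073) and TNFRSF11A, the RANK receptor, in A2058 (-1.21 ± 0.095). The TNFRSF1B signal was low, averaging 5.24 in A375 vemurafenib and 5.56 in A375 DMSO. Under DMSO 8 receptors were higher in A375, led by TLR4 (0.83 ± 0.075), TLR3 (0.34 ± 0.093) and TNFRSF1B (0.34 ± 0.073), and 5 were lower, led by TNFRSF11A (-2.33 ± 0.095), NGFR (-1.49 ± 0.060) and TNFRSF19 (-1.20 ± 0.045). In A2058, 1 or 2 receptors were called up under some alternatives, among them leaving out A2058 DMSO array 2 or 3, A2058 vemurafenib array 3 or A375 vemurafenib array 1.

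Of 14 adaptors and ubiquitin ligases, 7 rose and 4 fell in A375 (50% and 28.6%, beside 17.7% and 19.3% of all genes). In A2058, 6 rose and 4 fell (42.9% and 28.6%, beside 14.6% and 12.5%). RBCK1, a subunit of the linear ubiquitin ligase (0.82 ± 0.046), the Toll and interleukin-1 receptor adaptor MYD88 (0.81 ± 0.056) and the caspase inhibitor XIAP (0.47 ± 0.061) led the rises in A375. TRAF1, itself an NF-kB target (-1.99 ± 0.10), the kinase IRAK2 (-0.82 ± 0.050) and TRAF5 (-0.34 ± 0.064) led the falls. In A2058 MYD88 (0.33 ± 0.056), TRAF5 (0.28 ± 0.064) and TRADD (0.19 ± 0.055) rose most, and IRAK1 (-0.65 ± 0.057), BIRC2, the paralogue of BIRC3 (-0.51 ± 0.071), and TRAF3, a brake on the non-canonical route (-0.32 ± 0.060), fell most. The TRADD call (adjusted p = 0.0182) was lost without A2058 DMSO array 1 or 2 or A2058 vemurafenib array 3 (0.0605 to 0.0827). Under DMSO 5 were higher in A375, led by TRAF1 (3.20 ± 0.10), IRAK2 (2.28 ± 0.050) and RBCK1 (0.39 ± 0.046). TRAF6 (-0.27 ± 0.068) and SHARPIN (-0.16 ± 0.055) were lower; SHARPIN, adjusted p = 0.0335, was lost with quantile normalization (0.0761) and without any DMSO array except A2058 DMSO array 3 (0.0587 to 0.126). Without A375 vemurafenib array 1, 8 were called higher. TRAF1 and IRAK2 had low signals in A2058 DMSO, averaging 4.97 and 5.49. TRAF5 signals were low in all 4 groups, averaging 5.28 to 5.80.

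Of 10 IkB kinase subunits and upstream kinases, 5 rose and 1 fell in A375 (50% and 10%, beside 17.7% and 19.3% of all genes). The IKK-related kinase IKBKE (0.62 ± 0.059), the catalytic subunit CHUK (0.49 ± 0.091) and the regulatory subunit IKBKG (0.33 ± 0.085) rose most. MAP3K14, the NIK kinase of the non-canonical route, fell (-0.16 ± 0.048, adjusted p = 0.0199), a call lost without A375 DMSO array 2 or 3 or A375 vemurafenib array 2 or 3 (0.0517 to 0.0753). Its signal was low, averaging 5.12 in A375 vemurafenib and 5.28 in A375 DMSO. The count of rises was 3 without A375 DMSO array 1 or 3 or A375 vemurafenib array 2 or 3. In A2058 the catalytic subunit IKBKB rose (0.27 ± 0.071) and IKBKE fell (-0.17 ± 0.059), 10% of the list each, beside 14.6% and 12.5% of all genes. The IKBKB call (adjusted p = 0.0127) was lost without A2058 DMSO array 1 (0.0629) or A2058 vemurafenib array 3 (0.0577), and without A375 vemurafenib array 1 the counts were 3 up and 2 down. The IKBKE call in A2058 (adjusted p = 0.0464) was lost with the replicate block (0.0831), with all probe sets tested (0.0711) and without any 1 of 8 arrays, namely A375 DMSO array 1 or 2, A375 vemurafenib array 3, any A2058 DMSO array and A2058 vemurafenib array 1 or 2 (0.0567 to 0.197). Under DMSO 6 were higher in A375, led by IKBKE (0.63 ± 0.059), TAB3 (0.43 ± 0.078) and MAP3K8 (0.32 ± 0.056). That count ran from 4 to 6 with 1 array left out and from 5 to 6 under the other alternatives. MAP3K8 signals were low, averaging 5.78 in A375 DMSO and 5.46 in A2058 DMSO.

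Of 4 other IkB and BCL3 family genes, 2 fell in A375 and 1 in A2058 (50% and 25%, beside 19.3% and 12.5% of all genes). NFKBIE, IkB epsilon, fell in A375 (-0.51 ± 0.079) and A2058 (-0.32 ± 0.079), and NFKBID fell in A375 (-0.24 ± 0.060); none was called up by limma in either line, but 1 was in A375 without A375 vemurafenib array 3. BCL3 (0.87 ± 0.11), NFKBIE (0.41 ± 0.079) and NFKBID (0.27 ± 0.060) were higher in A375 under DMSO. Of 12 other negative regulators, 5 rose and 2 fell in A375 (41.7% and 16.7%, beside 17.7% and 19.3% of all genes). In A2058, 2 rose and 1 fell (16.7% and 8.33%, beside 14.6% and 12.5%). N4BP1 rose in A375 (0.79 ± 0.053) and A2058 (0.30 ± 0.053), as did the deubiquitinase OTUD7B (0.45 ± 0.041 and 0.23 ± 0.041), and the deubiquitinase CYLD rose in A375 (0.53 ± 0.080). TNIP1, a partner of A20, fell in A375 (-0.27 ± 0.051) and A2058 (-0.19 ± 0.051, adjusted p = 0.0127, lost at 0.0551 and 0.0646 without A2058 DMSO array 1 or A2058 vemurafenib array 2). The ribonuclease ZC3H12A fell in A375 (-0.35 ± 0.071). Under DMSO TNIP1 (1.03 ± 0.051), ZC3H12A (1.02 ± 0.071) and CYLD (0.60 ± 0.080) were higher in A375, and COMMD1 (-0.65 ± 0.072), OTULIN (-0.34 ± 0.047) and TAX1BP1 (-0.24 ± 0.076) led 4 lower genes. TAX1BP1, adjusted p = 0.0215, was lost without A375 DMSO array 1 or A2058 DMSO array 1 or 3 (0.0599 to 0.0973). In A2058, 4 negative regulators were called up with A2058 arrays alone, and 4 up and 2 down without A375 vemurafenib array 1; none was called down without A2058 DMSO array 1 or A2058 vemurafenib array 2.

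Of 30 measured target genes, 13 rose and 13 fell in A375 (43.3% each, beside 17.7% and 19.3% of all genes). In A2058, 3 rose (10%, beside 14.6%) and 12 fell (40%, beside 12.5%). In A375 the chemokines CCL5 (2.92 ± 0.085), CXCL10 (2.71 ± 0.094) and CCL2 (1.16 ± 0.085) rose most, and CCL20 (-3.18 ± 0.064), the cytokine LIF (-2.90 ± 0.071) and the early response gene IER3 (-1.88 ± 0.059) fell most. In A2058 the survival gene BCL2A1 (1.0 ± 0.098), KLF6 (0.73 ± 0.045) and the caspase-8 inhibitor CFLAR (0.30 ± 0.075) rose, and CXCL8 (-3.67 ± 0.074), IER3 (-1.75 ± 0.059) and PTGS2 (-1.64 ± 0.044) fell most. With array weights 5 targets rose in A2058. Under DMSO 19 were higher in A375, led by CCL2 (4.42 ± 0.085), CXCL10 (3.99 ± 0.094) and CCL20 (3.61 ± 0.064), and 6 were lower, led by KLF6 (-0.52 ± 0.045), CFLAR (-0.50 ± 0.075) and BCL2A1 (-0.40 ± 0.098). CXCL10 averaged 4.6 in A2058 DMSO, near the lower quartile of the arrays, where signals are compressed. CCL20 averaged 5.18 there, also a low signal. The target median between lines was 0.66, beside -0.0066 over all genes.

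**Figure D4:**
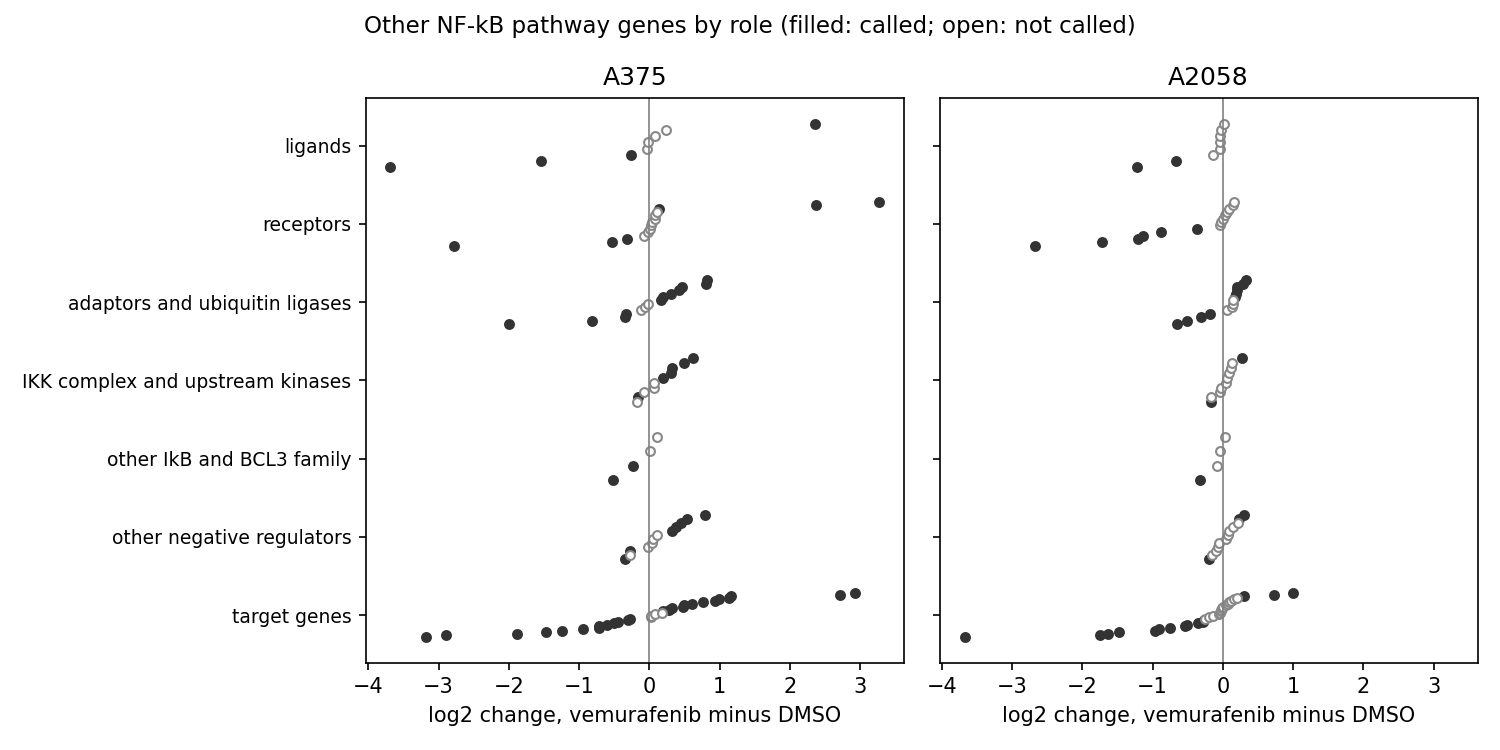
Log2 change, vemurafenib minus DMSO, of the 92 measured pathway genes in 7 lists by role, in A375 (left) and A2058 (right); each point is 1 gene, filled where called. Target genes spread to both sides of 0 in A375, with 13 called on each side, and mostly to the left in A2058, with 12 called down and 3 up.

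For each of the 7 members whose group means spanned at least 1 log2 unit, the 3 genes with the most similar values were listed, by Pearson's r over the 12 arrays. The arrays fall into 2 lines with 2 treatments, which all these genes share, so r is a description only. NFKB2 was most like ITGA5, SLC35E1 and RPL29 (r = 0.996 to 0.999), and RELB most like NOC2L, MRPL4 and EIF3G (0.989 to 0.995). REL was most like SORCS1, WDR48 and SPATA6 (0.984 to 0.992). NFKBIA was most like TYK2, COQ8A and SLC18B1 (0.996), NFKBIZ most like NFS1, GABRA3 and PRKAG1 (0.997 to 0.999) and TNFAIP3 most like HEATR1, SOX5 and SLC38A1 (0.997 to 0.998). SOD2 was most like MGP, AGRN and CD9 (0.995 to 0.997).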

How the data were processed

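Total RNA was measured on 12 Affymetrix arrays. The authors deposited log2 expression values, 1 per probe set and array; R 3.0.1 and affy are named in the submitters' processing notes, but how background was corrected and probes summarised is not given in the sources used here. The log2 scale was read from the values; they were not scaled again. Of 32321 probe sets, 19158 had 1 symbol in the platform annotation, updated through RefSeq (GRCh38.p14) for 19128; the brightest per gene gave 18404 genes. Another 1388 probe sets list more than 1 symbol and 11775 list none, and neither kind was named. All arrays entered 1 limma 3.58.1 fit (R 4.3.3, with lmFit, contrasts.fit and eBayes, on 4 group means) with 5 contrasts. Simulated data tested only the vemurafenib contrast in A375. The members and lists were chosen with earlier results of these data known. The rule names all members, up to 3 called genes per list, direction and comparison, and the 3 genes most like each widely varying member; genes called oppositely in the lines are named too. Alternatives were other scalings, a dim-gene filter, averaged probe sets, all probe sets, the replicate block, an intensity trend, array weights, single-line fits and leaving out each array. Same-numbered arrays deviated with r from -0.20 to 0.10, so the numbers were not taken as pairs.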

Additional observations from a re-analysis of the deposited data

Results flagged for a closer look

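The response to vemurafenib differed between A375 and A2058, by the direct test of the difference (A375 minus A2058, limma, adjusted over all genes), for 6 of the 9 measured genes. SOD2 differed by 0.70, having risen in both lines and by more in A375. NFKB1 differed by 0.45, with a fall called in A2058 and a change not called in A375. REL differed by -0.74, with a fall in A375 and a rise in A2058. NFKB2 differed by -0.53 and TNFAIP3 by -0.27, both having fallen in each line and by more in A375. Their signals were lower in A2058. NFKB2 averaged 6.77 with DMSO and 6.21 with vemurafenib there, and TNFAIP3 6.17 and 5.64. The part of signal compression in these 2 differences was not tested. RELA differed by -0.22, with a fall called in A375 and a change not called in A2058. What lies behind these differences was not tested.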

How the results depend on the processing

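For the 9 genes in 5 comparisons, 369 of 378 values under the alternatives and 524 of 540 with 1 array left out kept their direction and their side of the threshold. The counts of genes called stayed within 1.5 times the reported ones under every alternative run: 7 to 8 of 9 in A375, 6 to 8 in A2058, 5 to 7 for the difference of responses and 9 for each line comparison. Sign changes were confined to values near 0 that were never called: the NFKBIA difference of responses was 0.012 with arrays centred on their medians, 0.060 with array weights and -0.050 to 0.042 with 1 array left out, and the NFKBIZ change in A375 ran from -0.045 to 0.093. With the replicate block the counts were 7, 8, 6, 9 and 9, and no member's call changed. Over all genes, 6020 to 8127 were called in A375 and 4172 to 6378 in A2058. Without A375 vemurafenib array 1 the counts were 7785 and 5952, beside 6816 and 4991 as reported. All arrays share 1 estimate of the spread. The weight of that array was 0.149, beside 0.67 to 2.1 for the others. Scaling moved the median of all genes by 0.023 at most. Calls lost or gained are given beside each gene; their causes were not tested. Low signals are compressed, and the arrays give no detection limit.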

Other observations

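Of the 92 measured pathway genes, 7 (7.61%, beside 4.41% of all genes) were called in opposite directions in the lines, as REL was; they were picked out after their values were seen. TNFAIP6, a hyaluronan-binding protein induced by TNF, rose in A375 (1.0 ± 0.052) and fell in A2058 (-0.96 ± 0.052), and the difference of responses was 1.96 ± 0.074 (adjusted p = 8.97e-10). The difference was 3.03 ± 0.14 for TNFSF13B, 1.70 ± 0.12 for the monocyte chemokine CCL2 and 0.79 ± 0.083 for IKBKE, whose call in A2058 was lost under the alternatives given above. BIRC2 rose in A375 (0.42 ± 0.071) and fell in A2058 (-0.51 ± 0.071), a difference of 0.93 ± 0.10 (adjusted p = 1.31e-05). TNFAIP2 rose by 0.28 ± 0.048 in A375 and fell by 0.28 ± 0.048 in A2058, a difference of 0.56 ± 0.067 (adjusted p = 3.71e-05). TRAF5 alone ran the way REL did, down in A375 and up in A2058, with a difference of -0.62 ± 0.091 (adjusted p = 0.000174). The TRAF5 signal was low, averaging 5.28 in A375 vemurafenib, 5.62 in A375 DMSO, 5.80 in A2058 vemurafenib and 5.52 in A2058 DMSO.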
